A study of Caenorhabditis elegans with 12 samples.

Results

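The ttr genes of the nematode Caenorhabditis elegans encode small proteins related to transthyretin, and 34 of them were measured here, among 10334 genes that had a probe set of their own. Members were the genes with a symbol starting ttr- that a probe set named alone in the platform annotation, and each gene was read on its brightest probe set by mean log2 signal over 12 arrays. The arrays held polysomal RNA of ife-1(bn127) worms, nonpolysomal RNA of ife-1(bn127) worms, polysomal RNA of wild-type worms and nonpolysomal RNA of wild-type worms, from 3 cultures per genotype. IFE-1 is a germline form of the cap-binding translation factor eIF4E, and the study set the polysomal content of mRNAs in its mutant against that in wild type. Cultures of both genotypes were whole worms of mixed stages, eggs and larvae included, grown for the last 3 days at 20 °C on OP50 bacteria with chicken egg yolk. Lysates were spread on gradients of 10 to 45% sucrose, and RNA lighter than 80S was pooled as nonpolysomal (NP) and RNA heavier than 80S as polysomal (P). The worms were not separated by stage or tissue, so each value is an average over a whole population. With 3 arrays per group, precision is limited by their number throughout.

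Transthyretin of vertebrates is a blood protein that carries thyroid hormone and, through retinol-binding protein, vitamin A. Nematodes have a large family of proteins with a related fold, most of them predicted to be secreted, and few have a known role. In C. elegans the best known is TTR-52, a secreted protein that binds phosphatidylserine on dying cells and bridges it to the engulfment receptor CED-1, and that also acts in the fusion of severed axons. TTR-33 is known for a part in protecting dopaminergic neurons from oxidative damage. Neither ttr-52 nor ttr-33 is among the 34 genes, so their values were not analysed here.

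Array medians lay between 367.3 and 428.6 deposited signal units. The ife-1 probe set gave 62.3 to 177.7 on the 6 mutant arrays, of which 0 were called present, against 3566.7 to 5997.3 on the 6 wild-type arrays, of which 6 were called present. The position of that probe set relative to the bn127 lesion was not checked here. Wild-type culture 2 stood apart from the rest: its log2 P/NP values correlated at 0.773 and 0.755 with wild-type cultures 1 and 3 across probe sets, which correlated at 0.858 with each other, while the mutant cultures correlated at 0.802 to 0.854. Counts of the 3 comparisons below, and the values of some genes, are therefore given with and without it.

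Of the 34 ttr genes, 29 were called present on all 12 arrays. The other 5 were ttr-8, ttr-20 and ttr-39 with 11 present calls each, ttr-27 with 10 and ttr-28 with 9. Their missing calls fell in nonpolysomal RNA: in ife-1 cultures ttr-8 was present on 2 of 3 nonpolysomal arrays, ttr-27 on 1 and ttr-28 on 1, and in wild type ttr-20, ttr-28 and ttr-39 were present on 2 of 3. Mean log2 signals of the 34 probe sets ran from 5.82 for ttr-28 to 13.24 for ttr-15. The 5 dimmest were ttr-28, ttr-29, ttr-39, ttr-12 and ttr-27, and the 5 brightest were ttr-15, ttr-16, ttr-2, ttr-46 and ttr-51. Probe sets differ in their response, so this order is one of signals and not of mRNA levels between genes. For 6 genes, ttr-15, ttr-18, ttr-24, ttr-44, ttr-50 and ttr-51, the name of the probe set marks it as one that may match related transcripts, so the signal of relatives cannot be told apart from theirs.

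The first comparison set polysomal against nonpolysomal RNA within each genotype. Most ttr mRNAs were enriched in polysomal RNA relative to the average mRNA. Of 34 genes, 25 (73.5%) were higher in polysomal RNA in ife-1 cultures and 27 (79.4%) in wild type. In either genotype 0 were higher in nonpolysomal RNA (limma, adjusted p under 0.05). Over all 13333 probe sets the share higher in polysomes was 22.7% in ife-1 and 26.5% in wild type, and the share higher in nonpolysomal RNA was 26.1% and 29.3%. The median log2 P/NP of the ttr genes was 1.31 in ife-1 cultures, against -0.06 over all probe sets, and 1.56 in wild type, against -0.04. Expressed as the polysomal share P/(P + NP) of the normalized signal, the median ttr gene had 67.8%, 76.0% and 70.6% in ife-1 cultures 1 to 3, against 79.0%, 68.6% and 76.2% in wild-type cultures 1 to 3. The genotypes overlapped in this share, whose mean was 71.5% ± 4.16 in ife-1 and 74.6% ± 5.36 in wild type (SD, n = 3 each). Without wild-type culture 2 there was no overlap, by a margin of 76.0% in the highest ife-1 culture against 76.2% in wild-type culture 3. Since normalization gave all arrays the same distribution of signals, a share states where an mRNA stands relative to the average mRNA of the same culture and not the fraction of its molecules on ribosomes.

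The polysomal state was shared across genotypes for 23 ttr genes, whereas 2271 of all 13333 probe sets passed in both. The genes ttr-12, ttr-20, ttr-39 and ttr-50 passed in wild type alone, and ttr-14 and ttr-46 in ife-1 alone. Passing in 1 genotype does not show that the genotypes differ, and that difference is tested further on. The genes ttr-1, ttr-10, ttr-23, ttr-29 and ttr-53 passed in neither. Without wild-type culture 2, the count was 26 of 34 in ife-1 and 30 in wild type, and the wild-type median of log2 P/NP was 1.73. Over all probe sets, calls in either direction then went from 6517 to 7129 in ife-1 and from 7438 to 7092 in wild type.

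Over both genotypes the highest log2 P/NP belonged to ttr-5, ttr-25, ttr-2, ttr-16, ttr-8 and ttr-31. The share of ttr-5 mRNA in polysomes was 81.5%, 86.0% and 79.6% in ife-1 cultures, against 81.4%, 82.9% and 84.1% in wild type. Its values overlapped and its log2 P/NP was 2.24 ± 0.16 in ife-1 and 2.27 ± 0.16 in wild type (SE), so it was among the ttr mRNAs that stood high in polysomes in all 6 cultures. For ttr-25 the shares were 82.3%, 86.2% and 84.8% in ife-1, against 81.6%, 76.9% and 82.4% in wild type. For ttr-16 they were 86.7%, 86.0% and 82.4% in ife-1, against 80.1%, 77.5% and 78.0% in wild type. Every ife-1 culture lay above every wild-type culture for ttr-16, whereas for ttr-25 the lowest ife-1 culture fell just under the highest wild-type one. All 6 genes passed the P against NP test in both genotypes, with mean shares of 70.4% to 86.9% in ife-1 and 76.4% to 86.9% in wild type.

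At the other end stood ttr-53, ttr-23, ttr-1, ttr-10, ttr-39 and ttr-29. The share of ttr-53 was 36.7%, 49.8% and 47.5% in ife-1 cultures, against 49.9%, 44.2% and 44.2% in wild type. That of ttr-23 was 42.9%, 48.2% and 52.7% in ife-1, against 54.3%, 44.9% and 47.7% in wild type. Both genes overlapped between genotypes and sat near the median probe set, whose share was 49.2% in wild type. Mean shares over the 34 genes ranged from 43.3% for ttr-39 to 86.9% for ttr-2 in ife-1 cultures, and reached 86.9% for ttr-31 in wild type, where ttr-1 and ttr-53 had the lowest. A mean share above 75% was reached by 12 genes in ife-1 and 16 in wild type, and a mean share below 50% was found for 4 in ife-1 and 3 in wild type.

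**Figure D1:**
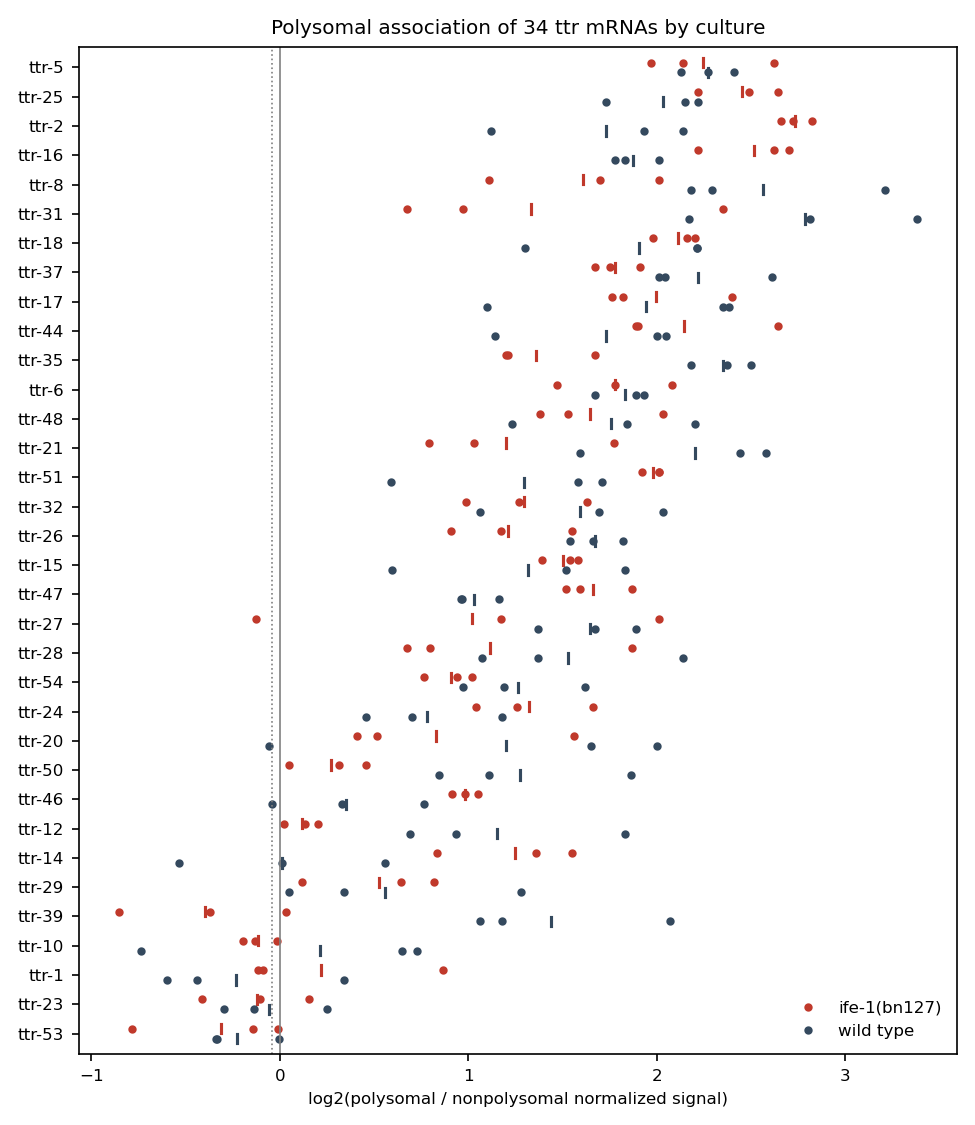
Log2 ratio of polysomal to nonpolysomal normalized signal (x axis) for the 34 ttr genes, ordered by their mean over 6 cultures, with the highest at the top. Red dots are the 3 ife-1(bn127) cultures and dark dots the 3 wild-type cultures, short bars are means, the solid line marks 0 and the dotted line the median of all probe sets in wild type (-0.04). Most genes lie to the right of both lines in both genotypes, and the 6 at the bottom lie near them, with wild-type ttr-39 well to the right.

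The second comparison asked how ttr mRNA, relative to the average mRNA, differed between the 2 genotypes, using the combined signal P + NP of each culture. Normalization gave both fractions equal weight in every culture, whatever RNA amounts they held, so combined signal is not an absolute amount. Combined signal fell in ife-1 cultures for 21 of 34 ttr genes (61.8%) and rose for 1 (2.94%), ttr-51 (limma, adjusted p under 0.05). Over all probe sets 18.5% fell and 21% rose. The median log2 difference, ife-1 minus wild type, was -0.80 for the ttr genes and 0.06 for all probe sets. The called falls ran from 1.53-fold for ttr-54 to 4.44-fold for ttr-8, with adjusted p between 0.0011 and 0.0259, and 11 of them were over 2-fold. Of the 21 genes, 18 were also polysomal in both genotypes, and the other 3 were ttr-10, ttr-29 and ttr-39. The count of calls depended on the cultures kept, and so did that over all probe sets, which was 5274 in the full fit. Without ife-1 culture 1, 12 ttr genes passed (2643 of all probe sets). Without both cultures of set 1, 3 passed (659), and without both cultures of set 3, 7 passed (1649). All these ttr calls were falls, and the ttr median was -0.787, -0.625 and -0.7 in these fits. In whole worms, fewer cells of a type and less RNA per cell cannot be told apart.

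The largest fall was that of ttr-8, with combined signals of 285.2, 598.4 and 214.9 in ife-1 cultures, against 1855, 1183 and 1463 in wild type. Even the highest ife-1 culture, culture 2, lay below the lowest wild-type culture, and the log2 difference was -2.15 ± 0.37 (SE, 3 cultures per genotype; limma adjusted p = 0.00439). Next came ttr-31, with 521.5, 885.6 and 453.9 in ife-1, against 2105, 2507 and 2453 in wild type. It was 3.95-fold lower in ife-1 with all 3 cultures below all wild-type ones (log2 difference -1.98 ± 0.26; limma adjusted p = 0.00178). The signal of ttr-18 was 2227, 3638 and 2108 in ife-1 cultures, against 8171, 8685 and 7147 in wild type. That of ttr-27 was 256.5, 246.7 and 186.4 in ife-1, against 736.3, 542.0 and 793.3 in wild type. Neither gene overlapped between genotypes, and the fall was 3.10-fold for ttr-18 (limma adjusted p = 0.00234) and 2.99-fold for ttr-27 (limma adjusted p = 0.00187).

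The next 4 falls were those of ttr-32, ttr-37, ttr-44 and ttr-5. For ttr-37, the lowest adjusted p of the family, combined signals were 587.5, 656.7 and 671.4 in ife-1, against 1580, 1507 and 1619 in wild type. The cultures of each genotype lay close together, and the log2 difference was -1.30 ± 0.14 (limma adjusted p = 0.0011). For ttr-44 the signals were 1297, 1493 and 1137 in ife-1, against 3192, 3008 and 3210 in wild type. For ttr-32 they were 464.3, 752.6 and 443.2 in ife-1, against 1907, 1152 and 1185 in wild type. For ttr-5 they were 1325, 2228 and 1278 in ife-1, against 3717, 4684 and 2881 in wild type. None of these 4 genes overlapped between genotypes, and ife-1 culture 2 was the highest mutant culture for ttr-32, ttr-44 and ttr-5, as it was for ttr-8, ttr-31 and ttr-18.

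The remaining 13 genes that fell were ttr-29, ttr-28, ttr-21, ttr-17, ttr-24, ttr-48, ttr-6, ttr-35, ttr-10, ttr-26, ttr-39, ttr-25 and ttr-54, with log2 differences of -1.20 for ttr-29 down in size to -0.62 for ttr-54. Among these, ttr-10 was the tightest, with 344.7, 327.8 and 337.3 in ife-1 cultures, against 599.8, 529.5 and 577.1 in wild type. Of the 12 genes that did not pass, 10 had differences below 0 and 2 above 0. In all, 23 ttr genes had every ife-1 culture below every wild-type culture, against 24.1% of all probe sets, and 2 had every ife-1 culture above, against 29.5%. The fractions taken singly went the same way: the mean log2 signal was lower in ife-1 for 31 of 34 genes in polysomal RNA (median difference -0.87, against 0.08 over all probe sets) and for 29 in nonpolysomal RNA (median -0.81, against 0.07). In the authors' deposited table, where folds run wild type over ife-1, the fold of NP + P was above 1 for 31 of the 34 genes, with a median of 1.82, against 1.04 over all probe sets.

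The exception was ttr-51, with 10770, 12320 and 9192 in ife-1 cultures, against 6099, 8450 and 5689 in wild type. Every ife-1 culture lay above every wild-type culture, and the log2 difference was 0.69 ± 0.20 (limma adjusted p = 0.0310). This call was close to the threshold: it held in 10 of 19 other settings, with limma adjusted p from 0.00638 to 0.231 over them. Leaving out ife-1 culture 1, 2 or 3 or wild-type culture 1 or 3 ended the call. The second gene without overlap in this direction was ttr-53, with 1201, 950.1 and 1255 in ife-1, against 840.8, 829.6 and 858.0 in wild type, a log2 difference of 0.42 ± 0.16 that did not pass (limma adjusted p = 0.0719). The third gene with a positive difference was ttr-46, at 0.03 ± 0.17.

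Wild-type cultures differed widely among themselves for ttr-12 and ttr-14, neither of which passed. Combined signal of ttr-12 was 190.2, 246.1 and 187.8 in ife-1 cultures, against 633.5, 164.8 and 581.6 in wild-type cultures 1, 2 and 3. That of ttr-14 was 253.1, 367.2 and 220.9 in ife-1, against 975.6, 235.3 and 900.5 in wild type. In both genes wild-type culture 2 lay inside or below the mutant range while wild-type cultures 1 and 3 lay above it (limma adjusted p = 0.157 for ttr-12 and 0.125 for ttr-14). Without wild-type culture 2, 23 ttr genes fell and 1 rose, and both ttr-12 and ttr-14 fell, by 1.56 and 1.77 on the log2 scale (limma adjusted p = 0.000416 and 0.000542). Calls over all probe sets also went up in that fit, from 5274 to 5947.

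**Figure D2:**
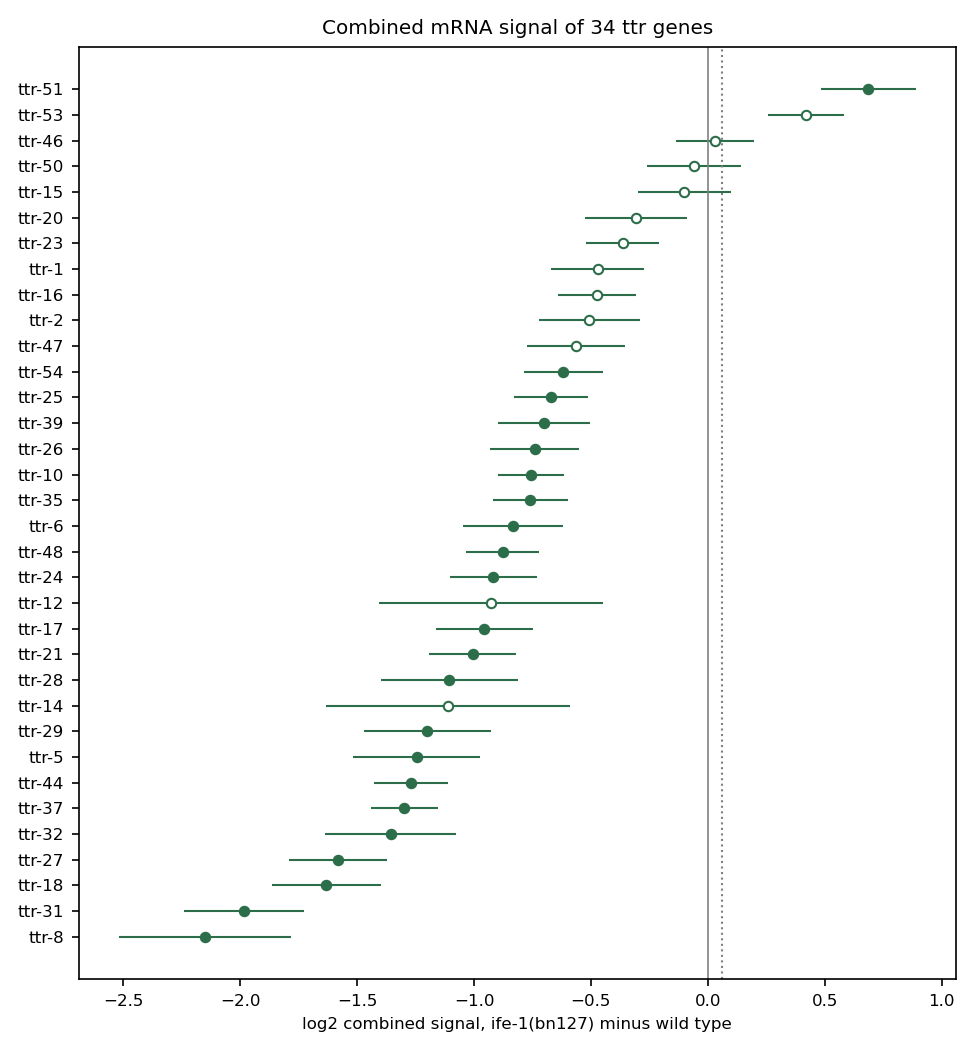
Log2 difference in combined signal P + NP, ife-1(bn127) minus wild type (x axis), for the 34 ttr genes in order of the difference. Points are fitted differences from 3 cultures per genotype, bars are SE, filled points passed at adjusted p under 0.05, the solid line marks 0 and the dotted line the median of all probe sets (0.06); 31 genes lie left of 0, and ttr-51 is the filled point on the right.

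**Figure D3:**
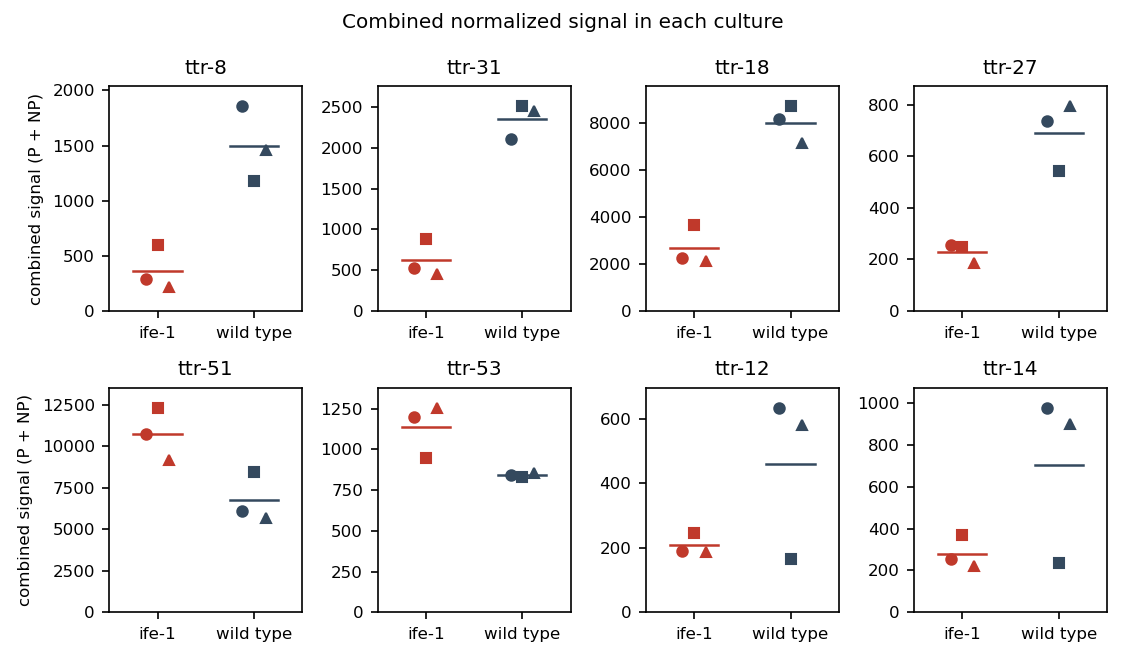
Combined normalized signal P + NP (y axis, from 0) of 8 ttr genes in each culture, with ife-1 on the left and wild type on the right of each panel. Circles are culture 1, squares culture 2 and triangles culture 3, and lines are means; the genotypes stand apart in the upper row and for ttr-51 and ttr-53, while wild-type culture 2 lies within the mutant range for ttr-14 and below it for ttr-12.

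Other mRNAs moved with the ttr genes between the genotypes, as the summed combined signals of marker lists show. The ttr genes together gave 86450 to 115900 in ife-1 cultures, against 123800 to 144600 in wild type. Of 8 measured genes expressed in moulting larvae, 6 fell and 0 rose, and their sum was 12940 to 17840 in ife-1, against 33440 to 39810 in wild type. Of 8 neuronal genes, 7 fell and 0 rose, with sums of 20960 to 24300 in ife-1, against 33500 to 38040 in wild type. Both lists were thus lower in every mutant culture, as the ttr sum was. Muscle genes had 4 falls among 7, with sums of 66170 to 73570 in ife-1, against 76770 to 81580 in wild type. The muscle sum too was lower in every mutant culture. Intestinal genes had 3 falls and 1 rise among 7, with overlapping sums of 62620 to 66290 in ife-1, against 63560 to 71730 in wild type. Sums follow the brightest probe sets: asp-1, an aspartyl protease gene whose difference was -0.03, made up 64.7% to 68.6% of the intestinal sum in ife-1 and 62.3% to 68.2% in wild type, while 6 of the 7 genes had differences below 0 and the median was -0.42.

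In the opposite direction, 8 of 8 oocyte and early embryo genes rose, with sums of 107500 to 152500 in ife-1, against 62220 to 69870 in wild type. All 5 measured yolk protein genes rose too, with sums of 184900 to 194500 in ife-1, against 115600 to 131000 in wild type. Of 9 sperm genes 0 passed, with sums of 43210 to 48040 in ife-1, against 37510 to 111000 in wild type, where the low value was that of culture 2. No gene of these lists lacked present calls, and the lowest had 8 of 12. The part that the makeup of the cultures has in the ttr values was not tested.

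Collagen genes of the col series, which encode the cuticle, and clec genes, which encode C-type lectin proteins, served as other large families. Of 92 col genes 66 fell and 1 rose, with a median log2 difference of -1.42, and of 75 clec genes 18 fell and 5 rose, with a median of -0.24. The col genes differed from the ttr genes in log2 P/NP: 32 of 92 were higher in polysomes in ife-1 and 12 in wild type, while 5 and 20 were lower. Their medians of log2 P/NP were 0.27 and -0.04, whereas the ttr medians were 1.31 and 1.56. A high median was not particular to the ttr genes. Of the 7 intestinal genes, 6 were higher in polysomes in ife-1 and 4 in wild type, with medians of 1.34 and 0.69. These contrasts are descriptions and were not tested.

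**Figure D4:**
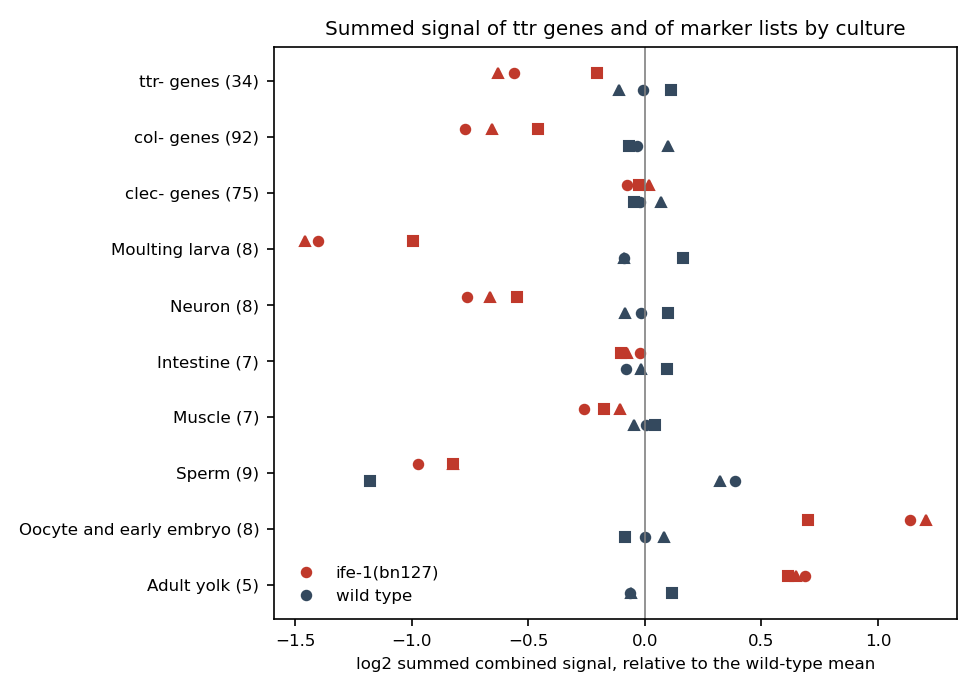
Summed combined signal of the 34 ttr genes, of 2 other families and of 7 marker lists in each culture, as log2 relative to the wild-type mean (x axis), with the number of measured genes in brackets. Red symbols are ife-1(bn127) and dark symbols wild type, with circles for culture 1, squares for culture 2 and triangles for culture 3. The ttr, col, moulting, neuron and muscle sums lie lower in all 3 mutant cultures. Oocyte and yolk sums lie higher, and clec, intestine and sperm sums overlap.

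The third comparison, central to the study, asked whether polysomal association itself differed between the genotypes, as the difference in log2 P/NP. None of the 34 ttr genes passed: 0 rose and 0 fell in limma, where 0.03% of all probe sets rose and 0.0975% fell. At an unadjusted p under 0.05, 5 ttr genes were higher and 7 lower in ife-1, against 10.4% and 10.1% of all probe sets, and the lowest adjusted p was 0.0639. The median difference was -0.07 for the ttr genes and 0.03 for all probe sets. The ttr median was not stable: it was -0.33 without wild-type culture 2, -0.21 without ife-1 culture 2, 0.03 without wild-type culture 1 and 0.18 without both cultures of set 1, while that of all probe sets stayed between 0.02 and 0.04. With arrays scaled on bacterial control probe sets, the median was -0.59 for the ttr genes and -0.47 for all probe sets. In each fit that left out a culture or a set, 0 of the 34 genes passed in limma. These fits called only 0 or 1 of all probe sets, so they say little about the ttr genes. Shares did not overlap between genotypes for 6 genes that were higher in ife-1 and 6 that were lower, against 14.8% and 12.4% of all probe sets. In the authors' deposited table the fold of the share, wild type over ife-1, was above 1 for 17 of the 34 genes and below 1 for 17.

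The gene with the lowest p was ttr-39, whose polysomal share was 43.6%, 50.5% and 35.6% in ife-1 cultures, against 69.4%, 67.5% and 80.8% in wild type. All 3 mutant cultures lay below all wild-type cultures, and the log2 P/NP difference was -1.83 ± 0.33 (SE; limma adjusted p = 0.0639). The share of ttr-35 was 69.8%, 76.1% and 69.6% in ife-1, against 81.9%, 83.8% and 84.9% in wild type, again without overlap (difference -0.99 ± 0.22; limma adjusted p = 0.0789). The share of ttr-31 was 61.5%, 83.6% and 66.2% in ife-1, against 87.5%, 81.9% and 91.2% in wild type. Here ife-1 culture 2 lay within the wild-type range, and the difference of -1.45 ± 0.46 had an adjusted p of 0.143 in limma. The other genes of the 6 lowest differences were ttr-12 at -1.03, ttr-21 at -1.01 and ttr-50, whose share was 50.8%, 57.9% and 55.4% in ife-1, against 68.3%, 78.4% and 64.2% in wild type.

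The highest difference was that of ttr-14, whose share was 71.9%, 64.1% and 74.6% in ife-1 cultures, against 59.5%, 40.8% and 50.2% in wild type. The groups did not overlap, and the difference was 1.24 ± 0.32 (limma adjusted p = 0.0987). For ttr-2, shares were 86.3%, 86.8% and 87.6% in ife-1, against 81.5%, 68.5% and 79.2% in wild type, with a difference of 1.00 ± 0.28 (limma adjusted p = 0.116). The mutant cultures of ttr-2 lay close together, and wild-type culture 2 was the lowest of all 6. The other genes of the 6 highest differences were ttr-51 at 0.69, ttr-16 at 0.64, ttr-47 at 0.63 and ttr-46 at 0.63. Without wild-type culture 2, the difference was 0.33 for ttr-51, 0.70 for ttr-2, 0.96 for ttr-14 and 0.43 for ttr-46, and at the other end -0.70 for ttr-50, -1.76 for ttr-31 and -2.02 for ttr-39. The lowest adjusted p among these 7 genes was then 0.0705 in limma, for ttr-39. Some other genes moved further without that culture: ttr-20 went from -0.37 to -0.997 and ttr-10 from -0.33 to -0.80, and neither passed. With 50 added to each signal, 5 ttr genes passed (ttr-2 higher, and ttr-8, ttr-31, ttr-35 and ttr-39 lower), while 609 of all probe sets did.

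The association differences were spread by signal. Of the 17 dimmest ttr genes 15 had negative differences, with a median of -0.42, and of the 17 brightest 11 had positive ones, with a median of 0.21. Without wild-type culture 2 the dim genes had 15 negative differences, with a median of -0.76, and the bright ones 8 positive differences, with a median of -0.03. Without both cultures of set 1 the dim genes had 9 negative differences, with a median of -0.06, and the bright ones 13 positive, with a median of 0.43. Spearman's rho between the difference and the mean log2 signal was 0.55 over the 34 genes and 0.21 over all probe sets, and over the 34 genes it was 0.44 to 0.63 when a culture or a set was left out. For log2 P/NP in ife-1 alone rho was 0.64 over the ttr genes and 0.07 over all probe sets, and in wild type it was 0.21 over the ttr genes. These points share their arrays and their normalization, and genes are not independent replicates. The part of signal strength in the association differences was not tested.

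**Figure D5:**
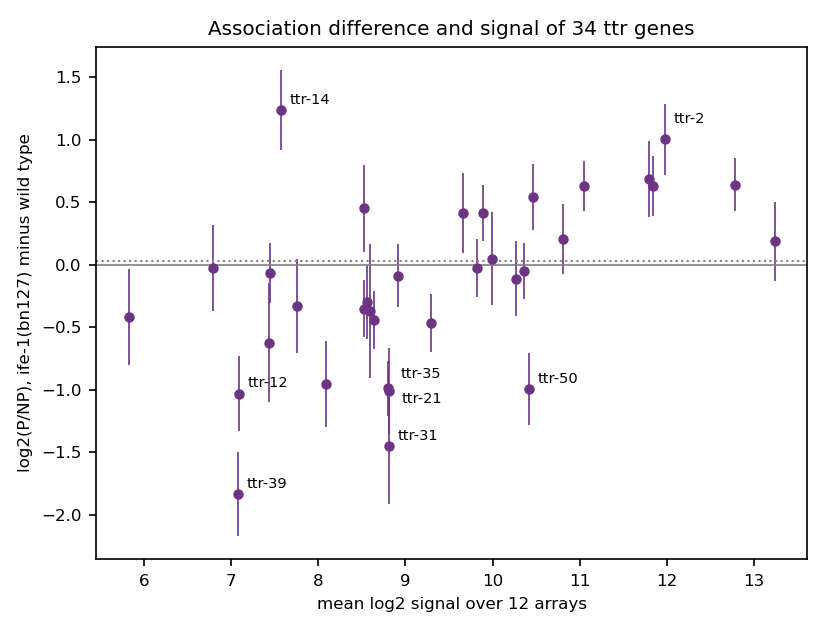
Difference in log2 P/NP, ife-1(bn127) minus wild type (y axis), against the mean log2 signal over 12 arrays (x axis) for the 34 ttr genes; bars are SE, the solid line marks 0 and the dotted line the median of all probe sets (0.03). Most dim genes on the left lie below 0 with ttr-14 as the highest point among them, and most bright genes on the right lie above 0 with ttr-50 well below.

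Many ttr genes lie side by side in the genome. By the RefSeq gene annotation, 12 groups of ttr genes neighbour each other, and 6 of these groups had at least 2 measured genes, 14 genes in all. Log2 differences in combined signal were -2.15 for ttr-8 and -1.36 for its neighbour ttr-32, and -1.58, -1.11 and -1.20 for ttr-27, ttr-28 and ttr-29. In these groups every gene fell. The neighbours ttr-24, ttr-25 and ttr-26 also all fell, by 0.92, 0.67 and 0.74. For ttr-2 and ttr-1 the differences were -0.51 and -0.47, and neither passed. Of ttr-16, at -0.47, and ttr-17, at -0.96, only ttr-17 passed, while ttr-54 fell by 0.62 beside ttr-53, whose difference was 0.42 without passing. Neighbours can also share sequence, so their probe sets are not independent measurements.

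The known partners of TTR-52 in the clearance of dying cells and in axon fusion were read as well. These were ced-1 (the engulfment receptor), ced-6 (its adaptor), ced-7 (an ABC transporter), nrf-5 (a secreted lipid-binding protein), psr-1 (a phosphatidylserine receptor) and eff-1 (a fusogen that joins cell membranes). Of these 6 genes, 1 fell in combined signal and 0 rose: eff-1, with a log2 difference of -0.88 (limma adjusted p = 0.00957). The differences of the other genes ran from -0.31 for nrf-5 to 0.68 for ced-7, with limma adjusted p of 0.0640 and above, and their median log2 difference with eff-1 included was 0.51. None passed in association in limma. R09H10.3, a transthyretin-related gene outside the ttr series, fell by 0.66 on the log2 scale (limma adjusted p = 0.0220), the direction in which 21 of the 34 ttr genes passed.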

How the data were processed

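Per the labels, fraction RNA was extracted with Trizol, pooled and biotin-labelled. The authors deposited intensities, linear probe set signals that the labels describe as read straight from the Affymetrix files; which software made them, and whether arrays were scaled, is not given in the sources used. The authors kept 13372 of 22626 probe sets by detection, per the file headers, and deposited mean folds (ratios, wild type over ife-1) of P/(NP + P) and of NP + P. A further 36 workbook columns with values of samples were left out.

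Here 39 control probe sets were removed. By the platform annotation 12616 probe sets have 1 gene, 459 several and 258 none; all 34 ttr genes matched the RefSeq table (WBcel235 assembly, used for names and neighbours only), which holds 59 ttr genes, 25 without a probe set of their own here. Signals below 1 were set to 1 (5 values), and the log2 values of the 12 arrays were brought to 1 distribution by quantile normalization, which makes every value relative to the other mRNAs of its array. Log2(P/NP) and log2(P + NP) per culture were fitted with limma 3.58.1 (lmFit and untrended eBayes, R 4.3.3). P-values were adjusted by Benjamini-Hochberg over 13333 probe sets and called at 0.05. Tables and figures were made in Python 3.11.15 with pandas 2.3.3 and matplotlib 3.10.9.

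An overview deposited by the authors pairs ife-1 and wild type by growth set and describes separate harvests, and the set number was taken as that pairing. Across probe sets, the deviations of paired cultures had correlations of -0.032, -0.0627 and 0.0234 for log2(P/NP), and of -0.113, -0.0532 and 0.13 for log2(P + NP). The tests carry no block; the blocked fit was an alternative, with other normalizations, filters, an offset of 50, a variance trend, unpaired fractions and cultures left out.

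The members and gene lists were chosen with earlier results of these data known. Named were all ttr genes that passed between genotypes, the 6 highest and 6 lowest in log2 P/NP and in its difference, the 8 largest abundance differences in each direction (3 were positive), and the 5 brightest and 5 dimmest. Marker genes were fixed lists of genes for sperm, oocyte and early embryo, moulting larva, adult yolk, intestine, neuron and muscle. Sequences were not used here.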

Additional observations from a re-analysis of the deposited data

How the results depend on the processing

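Calls in association between the genotypes were 0 of 34 ttr genes and stayed at 0 when signals were used as deposited, scaled to a common median or quantile-normalized within fractions, with a variance trend, with the mean of all probe sets of a gene, with the polysomal share as outcome, and in each fit that left out a set or a single culture. The main fit called 17 of all probe sets, and the settings that stayed at 0 gave 0 to 53 calls in all. With so few calls anywhere, a count of 0 among 34 genes says little about the ttr genes. Calls of ttr genes were 3 among probe sets above the median signal (21 ttr genes left) and 5 with an offset of 50. In all, there were 568 calls among the probe sets above the median signal and 609 over all probe sets with the offset. Scaling arrays on 9 bacterial control probe sets gave 2 ttr calls, and probe sets present on all 12 arrays (29 ttr genes left) gave 2. The scaling gave 342 calls over all probe sets, and the filter gave 348 among the 9760 probe sets it kept. Both settings were chosen after seeing the data. The ttr genes behind these calls were ttr-2, ttr-8, ttr-14, ttr-31, ttr-35, ttr-39 and ttr-50, and the cause was not tested. Calls in combined signal were 22 of 34 ttr genes (5274 over all probe sets). Where all 34 were tested, the other normalizations and models gave 15 to 25 (4632 to 5868 calls in all). Of 21 ttr genes above the median signal 17 passed (3236 calls in all), and of 29 present on all 12 arrays 20 passed (4368 in all). Leaving out 1 set or 1 culture gave 3 to 29, with fewer cultures in each such fit: 3 without set 1 (659 over all probe sets), 29 without set 2 (6503), 7 without set 3 (1649) and 12 without ife-1 culture 1 (2643). The genes ttr-27, ttr-31 and ttr-37 passed in each of their alternatives. Scaling on the bacterial controls moved the median of all probe sets in combined signal to 0.27, and the ttr median to -0.64, with 2 rises and 13 falls. In association it moved the median of all probe sets to -0.47 and the ttr median to -0.59, so the level of both medians depended on the normalization. Where all 34 ttr genes were tested, polysomal calls were 23 to 27 in ife-1 and 25 to 30 in wild type. Each genotype had 19 among probe sets above the median signal (21 ttr genes left) and 22 among those present on all 12 arrays (29 left). There were 0 nonpolysomal calls of ttr genes in any setting. In the fits without a filter, calls in either direction over all probe sets were 4018 to 7129 in ife-1 and 4857 to 7718 in wild type. Among probe sets above the median signal they were 4099 and 4371, and among those present on all 12 arrays 5414 and 5966. With the set number as replicate block the counts were 0 in association, 23 in combined signal, 25 in ife-1 and 27 in wild type; the block added ttr-47 in combined signal (limma adjusted p = 0.0467) and changed no other call. Over all single-gene values, 86 that were not called changed sign in an alternative, 52 of them in association.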

Other observations

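Beside the 34 genes, 1 probe set named both ttr-3 and ttr-4 and 1 named both ttr-49 and ttr-40, so neither counted as a member. The ttr-3/ttr-4 probe set gave combined signals of 854.0, 1005 and 778.7 in ife-1 cultures, against 2143, 1327 and 2532 in wild type. The log2 difference was -1.14 ± 0.25 (SE; limma adjusted p = 0.0112), without overlap between genotypes. Its mean polysomal share was 47.5% ± 3.79 in ife-1 and 43.9% ± 1.57 in wild type (SD, n = 3 each), low beside most members. The ttr-49/ttr-40 probe set differed by -0.30 ± 0.30 (limma adjusted p = 0.461) and had overlapping cultures.

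The gene ttr-24 was the only member with a second probe set. In combined signal this second probe set fell by 1.08 on the log2 scale (limma adjusted p = 0.00332), as the brighter one fell by 0.92. In association their signs differed: -0.42 ± 0.44 for the second and 0.54 ± 0.26 for the brighter one, and neither passed (limma adjusted p = 0.617 and 0.287).

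Values of wild-type culture 2, looked at after they were seen, set ttr-12 and ttr-14 apart. Combined signal in that culture was 0.271 times the mean of wild-type cultures 1 and 3 for ttr-12 and 0.251 times for ttr-14, and the other 32 members had ratios from 0.635 to 1.54. A ratio under 0.5 was found for 5.36% of all probe sets and for 7 of the 9 measured sperm genes. Any link between ttr-12, ttr-14 and sperm content was not tested.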
